A study of Rattus norvegicus with 6 samples.

Results

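The regions described here are the long tiles of a rat promoter array, that is, stretches of genome covered by many neighbouring probes. A tile was a run of probes on 1 chromosome in which neighbouring probe starts lay no more than 1000 bp apart, and a tile was called long when it was autosomal and measured 2500 bp or more from its first start to its last end. This rule used positions in build rn4 and no measured value. It gave 419 long tiles among 15504 autosomal tiles and 16174 tiles in all. The 14013 autosomal tiles of 1000 to 2000 bp served for comparison, and these are called ordinary tiles below.

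Methylation of cytosine in CpG pairs marks DNA in adult cells. Promoters rich in CpG usually carry little of it, and gene bodies and the stretches between genes usually carry more. A region that covers neighbouring promoters, or a promoter with its surroundings, can therefore hold methylated and unmethylated parts side by side. Granulosa cells surround the oocyte, support its growth and make oestradiol.

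DNA came from ovarian granulosa cells of female Sprague Dawley rats at postnatal day 56, and no transgene or deletion is given for any group. Their mothers had been dosed by gavage through pregnancy, from gestation day 1 to 21, with cadmium chloride at 8 mg/kg (cadmium) or with water at 0 mg/kg (control). Each group had 3 arrays, which the labels call biological replicates. The labels do not say how many animals or litters went into an array, so p-values measure only the spread between these samples. Granulosa cells were pressed out of punctured follicles and strained, and other ovarian cells could be carried along; the files name no genes, so markers of cell types were not checked. In the DNA of many cells, fewer methylated cells and less methylation per cell cannot be told apart.

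Methylated DNA was immunoprecipitated, labelled with Cy5 and hybridised together with input DNA labelled with Cy3, per the labelling protocol. The label field of the samples names Cy3 alone and another protocol speaks of sequencing, so the direction of every ratio here rests on the labelling protocol. The value of a probe is the log2 ratio of immunoprecipitated over input signal, centred on the array's median, and a tile's value is the mean over its usable probes. A value above 0 means more capture than the array's typical probe, and the scale is relative, not a percentage of methylated cytosines. All 419 long tiles had at least 3 usable probes and were tested. The input signal stood well above background for 91.4 to 98.4% of the probes of long tiles and the immunoprecipitated signal for 70.2 to 74% (75.2 to 78.8% in ordinary tiles). The array of cadmium replicate 2 had a narrower spread of tile ratios than the others (SD 0.776 against 1.06 to 1.12), and it was the only array of its scan batch. Control replicates 1 and 2 and cadmium replicate 1 shared a scan batch, as did control replicate 3 and cadmium replicate 3. Results that rest on cadmium replicate 2 are therefore given with and without it.

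The long tiles held 24647 probes, 14.3% of those on the array, and covered 4920 kb. They ranged from 2514 to 99717 bp with a median of 4001 bp, and from 8 to 538 probes with a median of 20. Probes lay a median of 163 bp apart in them and 162 bp apart in ordinary tiles, so the typical spacing was alike and longer tiles held more probes. Wider steps also occurred in long tiles, as given below. The shortest members were chr20:3075995-3078508 (2514 bp) and chr14:33508115-33510629 (2515 bp), with control ratios of 0.20 ± 0.11 and -1.59 ± 0.12 (SD, n = 3). The autosomal tiles just below the threshold were chr14:2743066-2745563 (2498 bp) and chr3:3419703-3422197 (2495 bp), with control ratios of -0.41 ± 0.065 and 0.38 ± 0.18 (SD, n = 3). Nothing in these values sets the members just inside the threshold apart from those just outside it.

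The working name of these tiles takes them to join promoters that lie close together. No start site could be placed on a tile, so this was not tested, and only the lengths are described. Counts fell off with length to 6 tiles between 4500 and 5000 bp, after which the lengths spread out again without a peak up to 40 kb. A division at 5000 bp, chosen after the lengths were seen, left 244 tiles up to 5000 bp with a median of 3217 bp and 17 probes. The other 175 tiles had a median of 18034 bp and 88 probes, and held 20405 probes, 11.8% of the array. These larger tiles lay close to further tiles: the nearest tile was a median of 1438 bp away, against 14105.5 bp for tiles up to 5000 bp and 30659 bp for ordinary tiles. Joined across gaps of up to 5000 bp, the 175 tiles formed 96 intervals, and 42 of these were between 49 and 52 kb wide. A further 6 were over 95 kb wide, and the widest measured 102024 bp. The plot of tile lengths and interval widths shows that narrow peak at about 50 kb.

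**Figure D1:**
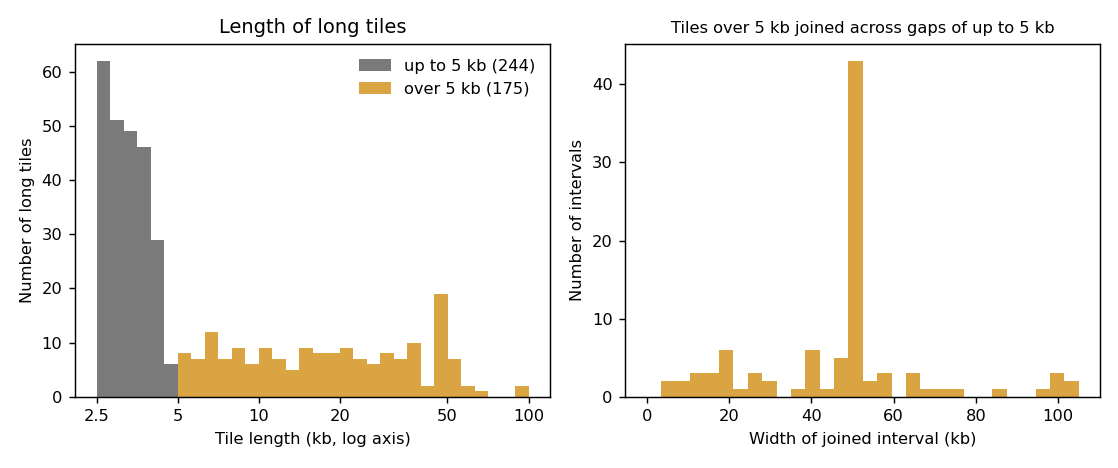
Number of long tiles by length in kb on a log axis (left) and number of intervals by width in kb after joining the tiles over 5 kb across gaps of up to 5 kb (right). The 244 tiles up to 5 kb thin out towards 5 kb, the 175 tiles over 5 kb spread up to 99717 bp, and the joined intervals pile up near 50 kb, where 42 of 96 lie between 49 and 52 kb.

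The tiles over 5000 bp thus mostly lie near further tiles in wider regions with gaps between the pieces, and they are called continuous tiles below, while the tiles of 2500 to 5000 bp are called joined tiles. Both names rest on length alone, since no gene could be assigned to a position. They do not say that a tile is free of wider steps between probes or that it joins promoters. A step of more than 500 bp between neighbouring probe starts occurred in 142 of the 175 continuous tiles (81.1%), in 79 of the 244 joined tiles (32.4%) and in 9% of ordinary tiles. Tiles with more probes (median 88, 17 and 10) have more steps in which a wide one can occur. The median step was 163, 163 and 162 bp. Chromosomes 12, 16 and 20 held no continuous tile; chromosome 20 held 16 joined tiles. Long tiles made up the largest share of tiles on chromosome 10 (54 of 1312 tiles, 4.12%) and the smallest on chromosome 12 (6 of 432, 1.39%). Probes on this array were 45 to 60 bases long, and their median ratio went from 1.02 for the shortest to -2.61 for the longest, so each level is given as measured and with probe length removed, that is, after the array's median for probes of the same length was subtracted. Probes of 60 bases made up 19.2% of probes in continuous tiles, 9.41% in joined tiles and 12.7% in ordinary tiles, and probes of 45 bases 34.5%, 54.2% and 51.2%.

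Long tiles had a lower mean ratio than ordinary tiles on 6 of 6 arrays. Their mean was -0.54 ± 0.018 in controls and -0.49 ± 0.031 in cadmium (SD, n = 3 arrays each), against -0.35 ± 0.028 and -0.32 ± 0.041 for ordinary tiles. The difference per array, long minus ordinary, was -0.186, -0.187 and -0.204 in controls and -0.193, -0.115 and -0.193 in cadmium, where the middle value is that of the narrow array. The whole of this difference lay in the continuous tiles, whose mean was -0.83 ± 0.024 in controls and -0.75 ± 0.070 in cadmium. Joined tiles lay at -0.33 ± 0.022 and -0.30 ± 0.029, which is 0.017 ± 0.016 above ordinary tiles in controls (SD, n = 3 arrays).

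With probe length removed, joined tiles lay lowest. Continuous tiles then stood 0.017 ± 0.012 above ordinary tiles in controls, above them on 6 of 6 arrays, but over segments of 1000 bp that contrast was 0.0025 ± 0.011 in controls and -0.0042 ± 0.0063 in cadmium, below 0 on 3 of 6 arrays. Joined minus ordinary tiles came to -0.0993 ± 0.014 in controls and -0.080 ± 0.028 in cadmium, below 0 on 6 of 6 arrays (SD, n = 3 arrays each). Long tiles as a whole kept a difference of -0.051 ± 0.011 in controls. The lower ratio of continuous tiles as measured thus moved with their longer probes, and the part of base composition behind it was not tested.

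**Figure D2:**
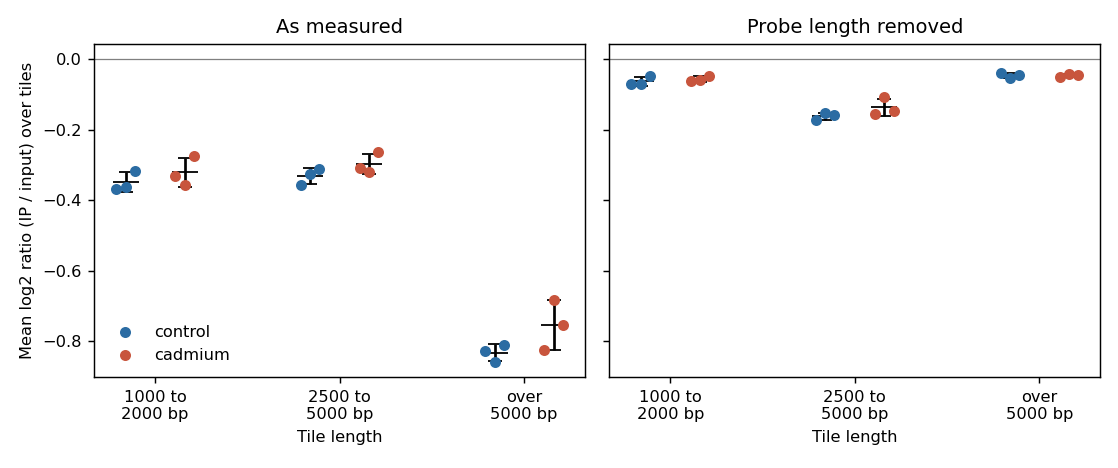
Mean log2 ratio of immunoprecipitated over input signal over tiles of 3 length classes, as measured (left) and with probe length removed (right). Points are the 3 arrays of each group and bars the mean and SD; tiles over 5000 bp lie lowest as measured (-0.83 in controls), and tiles of 2500 to 5000 bp lie lowest once probe length is removed (-0.16).

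Few long tiles were strongly enriched as a whole, while more were strongly depleted. On all 6 arrays, 1 long tile lay more than 2-fold above the median, 0.239% of long tiles against 1.74% of ordinary tiles; without cadmium replicate 2 the count was 9 (2.15% against 8.62%). More than 2-fold below lay 86 long tiles (20.5%), 56 of them continuous (32% of continuous tiles) and 30 joined (12.3%), against 18.1% of ordinary tiles. After removal of probe length, 4 long tiles (0.955%) lay more than 2-fold below on all arrays, all of them joined, against 3.29% of ordinary tiles. Means over more probes vary less: the SD between tiles in the different arrays was 0.521 to 0.73 for continuous, 0.618 to 0.878 for joined and 0.777 to 1.13 for ordinary tiles.

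The 5 long tiles with the highest control ratio were all joined tiles with probes averaging 45.3 to 47 bases. The highest was chr1:201407974-201411659 (3686 bp, 17 usable probes), with 1.71, 1.89 and 1.91 in controls and 1.87, 0.958 and 1.92 in cadmium. Next came chr5:158094722-158098028 (3307 bp), with 1.60, 1.76 and 1.61 in controls and 1.66, 0.72 and 1.62 in cadmium. In both tiles the groups overlapped and cadmium replicate 2 was the low sample. The others were chr2:179855049-179857658 (control mean 1.64 ± 0.11), chr12:43115379-43118182 (1.39 ± 0.18) and chr20:4259168-4262930 (1.29 ± 0.052). These 5 tiles still lay between 0.628 and 1.2 in controls once probe length was removed.

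The lowest ratios were found in a mixed set. The tile chr2:102649566-102652207 (2642 bp, 7 usable probes) had -3.02, -3.08 and -2.79 in controls and -2.99, -2.74 and -2.31 in cadmium, and 62.5% of its probes were of 60 bases. Its control ratio was -0.904 with probe length removed. The tile chr3:13878628-13882866 (4239 bp) had -2.65, -2.55 and -2.98 in controls and -2.66, -2.08 and -2.26 in cadmium; only 5.56% of its probes had 60 bases and its ratio stayed at -2.17 with probe length removed. The lowest continuous tile was chr7:105828907-105836707 (7801 bp, 60% of probes with 60 bases), at -2.70 ± 0.063 in controls and -2.45 ± 0.32 in cadmium. The remaining tiles of the lowest 5 were chr17:72561769-72564335 at -2.30 ± 0.10 and chr2:15254240-15256960 at -2.25 ± 0.079 in controls (SD, n = 3).

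The profile along a long tile depended on the tile's length. In each tile, usable probes within 500 bp of either end were set against those between. Over the 412 long tiles with enough probes in both parts, middle minus ends was -0.233 ± 0.0025 in controls and -0.19 ± 0.067 in cadmium (SD, n = 3 arrays), below 0 on 6 of 6 arrays. The middle lay below the ends in 250 of the 412 tiles (60.7%) in controls. In ordinary tiles the same difference was -0.106 ± 0.0089 in controls and went to 0.0078 with probe length removed, while long tiles kept -0.165 ± 0.0034.

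The sign of that mean differed between length bins within the members, a pattern found after the data were seen, and single tiles went both ways in each bin. In the 59 tiles from 2500 to under 2800 bp, middle minus ends was 0.37 ± 0.018 in controls and 0.33 ± 0.062 in cadmium, and it was above 0 in 30 of the 59 in controls (50.8%). It was -0.375 ± 0.022 in controls in the 60 tiles from 2800 to under 3200 bp, -0.59 ± 0.018 in the 51 tiles from 3200 to under 3600 bp and -0.525 ± 0.0031 in the 72 tiles from 3600 to 5000 bp. Above 0 in controls were 43.3%, 27.5% and 29.2% of the tiles in these bins. The 93 continuous tiles up to 20 kb had -0.20 ± 0.0065 and the 77 longer ones -0.117 ± 0.01 (SD, n = 3 arrays). Tiles a little shorter than the members went the other way: in 365 tiles from 2100 to under 2500 bp the difference was 1.39 ± 0.035, and it was above 0 in 292 of the 365 (80%). Once probe length was removed, it was 0.397 ± 0.011 for the tiles from 2100 bp, 0.024 ± 0.018 for those from 2500 bp and -0.37 ± 0.014 for those from 3200 bp. Mean probe length was 46.9 bases in the middle and 50.2 at the ends in the tiles from 2100 bp, 48.4 and 49.6 in those from 2500 bp and 48.8 and 48.2 in those from 3200 bp. In continuous tiles it was 50.8 and 50.7 bases up to 20 kb and 50.5 and 50.7 beyond. Its part in the difference was tested only by the removal of probe length above.

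By distance from the nearest end, joined tiles from 2800 bp up were highest near their ends and lower inside. Probes 250 to 500 bp from an end had a control mean of 0.13 ± 0.024, those 750 to 1000 bp from it -0.57 ± 0.022, and those 1500 to 1750 bp from it -0.58 ± 0.015 (SD, n = 3 arrays). On the scale with probe length removed, the lowest bin was that of 750 to 1000 bp, at -0.33 ± 0.016. Ordinary tiles were also highest 250 to 500 bp from an end (-0.14 ± 0.035) and had no probes farther in than 1000 bp. As measured, joined tiles under 2800 bp were lowest at the end, at -0.82 ± 0.029, and highest in the innermost bin, at -0.14 ± 0.047 from 1000 to 1250 bp. This order did not hold with probe length removed, where the end bin had -0.25 ± 0.037, the innermost -0.31 ± 0.032 and the bin of 500 to 750 bp, the lowest, -0.395 ± 0.02. Continuous tiles had their lowest values at 500 to 750 bp, -1.01 ± 0.031, and lay between -0.70 and -0.80 from 1000 to 2500 bp.

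**Figure D3:**
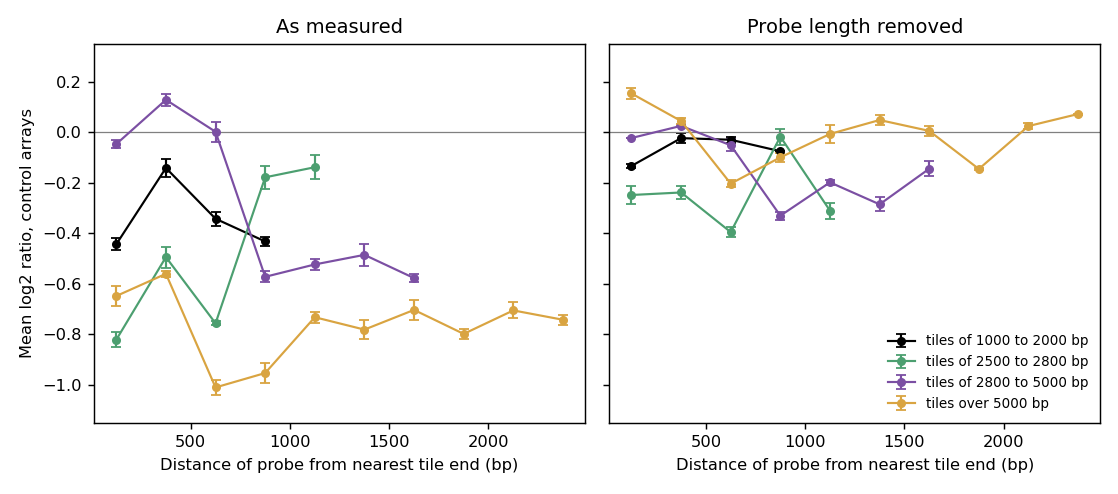
Mean log2 ratio of control arrays against the distance of a probe from the nearest end of its tile, in bins of 250 bp, as measured (left) and with probe length removed (right). Points are means and bars SD over 3 control arrays; as measured, tiles of 2800 to 5000 bp go from 0.13 near the end to below -0.48 beyond 750 bp and tiles from 2500 to under 2800 bp (green) go from -0.82 at the end to -0.14 innermost, while on the right the innermost green value (-0.31) lies below that at the end (-0.25).

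The ratio varied widely inside a continuous tile. The tiles were divided into segments of 1000 bp with at least 3 usable probes each, a median of 14 and up to 93 segments per continuous tile. Over the 112 continuous tiles with 10 or more segments, the SD among the segments of a tile had a median of 1.01 (0.881 with probe length removed). In the 7423 ordinary tiles with 2 segments the median SD between them was 0.942 (0.664 with probe length removed). An SD of 2 values has a lower median than an SD of many values with the same spread. These medians therefore cannot rank the classes by their spread inside a tile. In the 112 continuous tiles the distance from the lowest to the highest segment had a median of 3.88 on the log2 scale. Neighbouring segments were only weakly alike. Their control ratios correlated at r = 0.363 over 2846 neighbouring pairs of continuous tiles and at 0.0853 with probe length removed, and these pairs share arrays and base composition. Segments of joined tiles had a lower r of 0.128 (382 pairs) and those of ordinary tiles of 0.0868 (7423 pairs). With probe length removed these were 0.00326 and 0.023. For probes no more than 250 bp apart r was 0.231 in continuous tiles (10851 pairs), 0.281 in joined tiles (2147 pairs) and 0.319 in ordinary tiles (61860 pairs). With probe length removed, r between such probes was 0.0892, 0.128 and 0.131 in the same order.

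Low or high stretches were accordingly short. After subtraction of the probe length medians, 231 of 3474 segments of continuous tiles (6.65%) lay more than 2-fold below the median on each array, and they formed 212 separate stretches. Stretches of 2 or more segments numbered 17 in continuous and 1 in joined tiles, and the longest had 3 segments. These were chr10:864481-867270, with a control ratio of -2.17 on this scale and -2.18 as measured, and chr8:44550121-44553047, with -1.32 on this scale and -2.63 as measured. Cadmium ratios as measured were -1.94 and -2.41. High stretches numbered 154 in continuous tiles, 11 of them with 2 segments and none longer. Segments more than 2-fold above on all 6 arrays made up 4.75% in continuous and 3.88% in ordinary tiles, and those below 6.65% and 7%. Leaving out cadmium replicate 2 turned the order of the segments above, to 8.18% in continuous and 9.01% in ordinary tiles.

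The longest tile, chr6:134339829-134439545 (99717 bp, 538 probes of which 432 usable), had a mean of -0.455 ± 0.0025 in controls and -0.41 ± 0.028 in cadmium (SD, n = 3). Its 93 segments ranged in controls from -3.32 to 1.54 with a median of -0.439. The lowest, chr6:134384000-134384842, had -3.17, -3.29 and -3.48 in controls and -3.35, -2.76 and -3.21 in cadmium. The highest, chr6:134394891-134395778, had 1.51, 1.54 and 1.57 in controls and 1.67, 0.56 and 1.60 in cadmium. They begin 44 and 55 kb into the tile, and in both the arrays other than cadmium replicate 2 lay close together. Of its 93 segments, 16 lay more than 2-fold below on all 6 arrays (all segments 23.9%) and none above (all segments 5.66%). The highest segment and some others lay more than 2-fold above on every array but cadmium replicate 2. An unadjusted limma p under 0.05 was reached by 3 of the 93 (all segments 3.34%), and the smallest adjusted p was 0.854. On the same chromosome, chr6:134098852-134155478 (56627 bp) had a control ratio of -0.20 ± 0.025, and chr6:134168153-134210102 (41950 bp), among the 3 tiles with the widest range of segments, ran from -3.70 to 2.38.

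**Figure D4:**
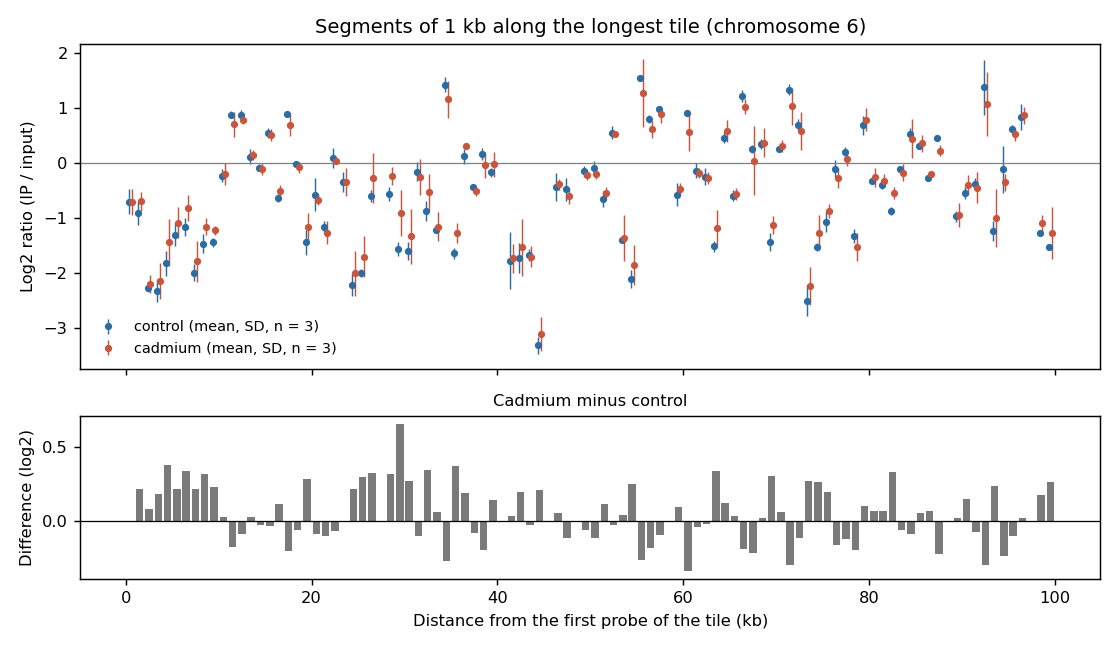
Log2 ratio of 1 kb segments along the longest tile by distance in kb from its first probe, with mean and SD of 3 arrays per group (top), and the difference cadmium minus control in log2 (bottom). Segments run from -3.32 to 1.54 in controls, groups follow each other along the tile, and 9 of its 93 segments lie higher in cadmium without overlap (all segments 7.34%) and 3 lower.

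The other longest tiles had other levels. The tile chr10:65851074-65948944 (97871 bp, 494 probes) lay at -0.00074 ± 0.031 in controls, close to the array median. The tile chr17:22069800-22136345 (66546 bp, 20.6% of probes with 60 bases) lay at -0.94 ± 0.039, with 21 of its 55 segments more than 2-fold below on all arrays (all segments 23.9%). The tile chr1:135241889-135304142 (62254 bp) lay at -0.27 ± 0.028 (SD, n = 3). The control ratios of the 5 longest tiles were between -0.212 and -0.0365 with probe length removed. The widest range of segments was found in chr10:28498053-28504021 (5969 bp), where the segment starting 1 kb in had 2.55 ± 0.15 and the last one -3.97 ± 0.32 in controls. In chr4:57071305-57109026 (37722 bp), the segment at 8 kb had 3.21 ± 0.085 and that at 28 kb -2.77 ± 0.086 (SD, n = 3).

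The comparison of cadmium with control asked which long tiles differed after exposure before birth. No long tile differed at an adjusted p under 0.05 in limma (lowest adjusted p = 0.856); over all 15846 tiles the share called was 0.00631%, which is 1 tile. At an unadjusted p under 0.05 stood 7 long tiles (1.67%; all tiles 3.57%), each of them higher in cadmium (all tiles 3.26%), so the share was below that of the whole array. The 95% interval of a long tile's difference, not adjusted for the number of tiles, had a median half-width of 0.27. The 7 became 1, 4 and 2 without control replicate 1, 2 or 3, and 21, 9 and 8 without cadmium replicate 1, 2 or 3. Shares over all tiles were not counted in these fits.

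The groups did not overlap in 55 long tiles (13.1%; all tiles 10.2%), 51 of them higher in cadmium (all tiles 7.95%). Among continuous tiles there were 29 such tiles of 175 (16.6%), all higher. Without cadmium replicate 2 the counts were 80 long tiles (19.1%) and 36 continuous tiles (20.6%) against 18.5% of all tiles. The median difference, cadmium minus control, was 0.057 in long, 0.0815 in continuous, 0.0245 in joined and 0.0275 in all tiles. Without cadmium replicate 2 it was 0.037, 0.041, 0.032 and 0.040. The larger median shift of continuous tiles thus rested on the array with the narrow spread. The larger share higher in cadmium did not rest on it for tiles, but did for segments of 1000 bp. For tiles it was 78.9% of continuous and 56.2% of all tiles, and 84.6% and 65.5% without cadmium replicate 2. For segments it was 63.6% of those in continuous tiles and 56.4% of all, and 60.4% and 61.9% without cadmium replicate 2. Continuous tiles average over more probes, so their means vary less, and the part of this in the share of tiles was not tested. Of the 36 continuous tiles without overlap when cadmium replicate 2 was left out, 34 were higher, against 2255 of 2939 over all tiles. Of the 614 such segments of continuous tiles 432 were higher, against 3503 of 4916 over all segments. The mean difference of continuous tiles was -0.0002 with probe length removed.

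As a class, long minus ordinary tiles, the difference between groups was 0.026, within the spread of the cadmium arrays (SD 0.045), and -0.00024 without cadmium replicate 2. The mean over long tiles was higher in cadmium by 0.027 within the scan batch of control replicates 1 and 2 and by 0.052 within that of control replicate 3. For ordinary tiles the same values were 0.033 and 0.0405. No difference of the class mean particular to long tiles was seen at this size.

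The long tile with the smallest p was chr20:4997456-5001961 (4506 bp, 13 usable of 21 probes, none with 60 bases). Its ratio was -1.2, -1.16 and -1.28 in controls and -0.682, -0.197 and -0.670 in cadmium. The groups did not overlap, and cadmium replicate 2 was the highest. The difference was 0.70 (SE 0.15, adjusted p = 0.856 in limma), 0.54 without cadmium replicate 2, and 0.50 and 0.61 within the scan batches. It lay in the input channel, which was lower in cadmium by -0.69, and not in the immunoprecipitated channel, at 0.017. With array weights (adjusted p = 0.0116) and with the scan batch as a block (0.0298, where cadmium replicate 2 adds nothing to the comparison) this tile passed; over 24 settings its adjusted p ran from 0.0116 to 1. Its first segment, chr20:4997456-4998243, had -0.60 ± 0.033 in controls and 0.097 ± 0.24 in cadmium (SD, n = 3).

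The other long tiles with small p that were higher in cadmium had low ratios throughout. The tile chr14:33508115-33510629, the second shortest member, had -1.57, -1.47 and -1.72 in controls and -1.30, -1.06 and -1.36 in cadmium (difference 0.35, SE 0.128). The tile chr19:25129542-25132100 (2559 bp) had -1.46, -1.34 and -1.55 against -1.13, -0.918 and -1.28 (difference 0.34). The tile chr2:15254240-15256960 (2721 bp) had a difference of 0.32 and the continuous tile chr14:109654846-109661710 (6865 bp) of 0.28. In these 4 tiles the groups did not overlap, which the choice by small p favours. In the tile on chromosome 14 of 2515 bp most of the difference lay in the immunoprecipitated channel (0.28, input -0.076), unlike on chromosome 20.

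The 5 long tiles with the smallest p among those lower in cadmium did not reach an unadjusted p of 0.05. They were joined tiles, and 4 of the 5 had control ratios above 0, such as chr2:117214649-117218313 (3665 bp), with 0.695, 0.702 and 0.856 in controls and 0.588, 0.192 and 0.714 in cadmium (difference -0.25, SE 0.15). Cadmium replicate 2 was the lowest sample in all 5. Without it the differences of the tiles on chromosomes 2, 5, 10 and 1 were -0.10, -0.017, -0.045 and -0.043. The tile chr4:162504820-162508150 (3331 bp) had -0.369, -0.333 and -0.210 in controls and -0.462, -0.520 and -0.375 in cadmium, without overlap, and a difference of -0.115 without cadmium replicate 2.

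**Figure D5:**
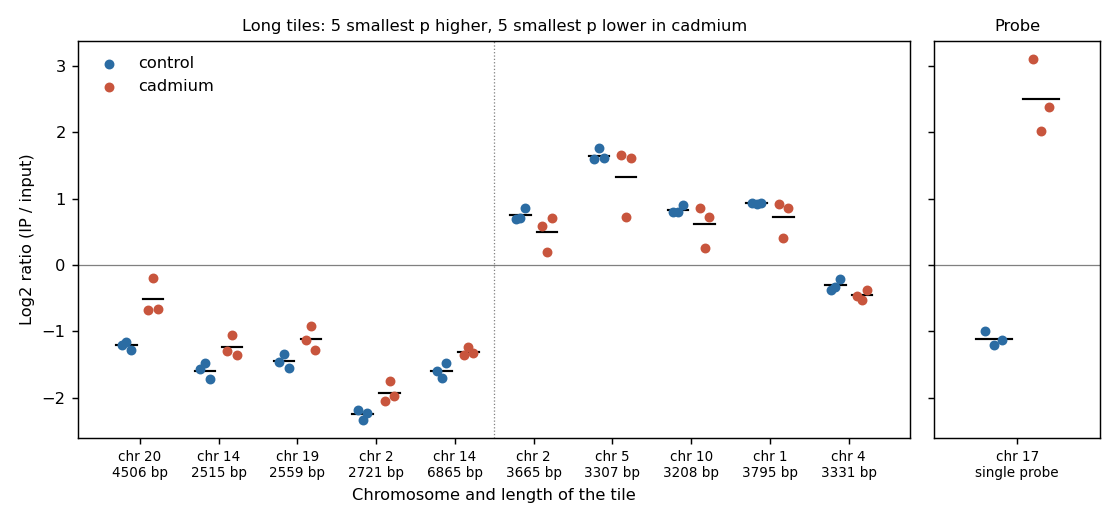
Log2 ratio per array, with group means as lines, of the 5 long tiles with the smallest p among those higher in cadmium and the 5 among those lower (left), and of the single probe with the smallest p (right). The chromosome 20 tile and the chromosome 17 probe show the widest gaps between groups; in all 5 tiles lower in cadmium, cadmium replicate 2 (the middle cadmium point) lies lowest.

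A change in part of a tile can be lost in the tile's mean, so segments and single probes were compared as well. No segment of a long tile passed (lowest adjusted p = 0.854 in limma, 4151 segments; all segments 0.0036%, 1 of 27745). At an unadjusted p under 0.05 stood 165 segments (3.97%; all segments 3.34%), 157 of them higher in cadmium (all segments 3.04%). Without control replicate 1, 2 or 3 the count was 75, 67 and 107. It was 422, 189 and 164 without cadmium replicate 1, 2 or 3. Of the 189 segments without cadmium replicate 2, 152 were higher in cadmium. Shares over all segments were not counted in these fits. The groups did not overlap in 421 segments of long tiles (10.1%; all segments 9.65%), 342 of them higher (all segments 7.34%), and in 719 without cadmium replicate 2 (17.3%; all 17.7%).

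The segment with the smallest p was chr17:12593735-12594539, in a tile of 11738 bp. It had -2.23, -2.28 and -2.51 in controls and -1.42, -0.522 and -1.56 in cadmium (difference 1.17, SE 0.26), and the input channel differed by -1.2 and the immunoprecipitated channel by -0.021. Next came chr4:168362918-168363767, with -3.01, -3.06 and -2.92 in controls and -2.28, -2.40 and -2.47 in cadmium, where 0.48 lay in the immunoprecipitated channel. It kept too few probes where both channels had to stand above background, as did the chromosome 10 and chromosome 1 segments below. The third of the segments higher in cadmium was the first segment of the chromosome 20 tile. Of segments lower in cadmium, chr18:57656141-57656665 had 0.29 ± 0.057 in controls and -0.30 ± 0.26 in cadmium, chr10:74911133-74912038 -1.27 ± 0.046 and -1.77 ± 0.12, and chr1:95595198-95595674 0.83 ± 0.099 and 0.24 ± 0.32 (SD, n = 3). In these 6 segments the groups did not overlap, which the choice by small p favours.

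Of the 19349 usable probes in long tiles, none passed (lowest adjusted p = 0.105 in limma; 0% of all 132042 probes were called). At an unadjusted p under 0.05 stood 668 (3.45%; all probes 3.13%), 584 of them higher in cadmium (all probes 2.68%). The count was 359, 373 and 492 without control replicate 1, 2 or 3. It was 1585, 832 and 772 without cadmium replicate 1, 2 or 3. Of the 832 probes without cadmium replicate 2, 563 were higher in cadmium. Shares over all probes were not counted in these fits. The smallest p on the whole array belonged to a probe of 47 bases at chr17:12594279-12594325, inside the chromosome 17 segment above. Its ratio was -1, -1.21 and -1.13 in controls and 3.10, 2.02 and 2.38 in cadmium, a difference of 3.61 (SE 0.31, adjusted p = 0.105 in limma). The groups were wide apart on every array, and the difference was 4.20 and 3.51 within the scan batches. The input channel alone was lower in cadmium by -3.64 (adjusted p = 0.0273 in limma) and the immunoprecipitated channel differed by -0.023. This probe passed in 7 of 23 settings, with adjusted p from 0.000674 to 1. The tile around it, chr17:12585631-12597368 with 48 usable probes, had -0.18 ± 0.044 in controls and -0.073 ± 0.031 in cadmium (SD, n = 3).

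The further probes with small p lay in other continuous tiles. A probe at chr1:116208788-116208847 had -5.43 ± 0.053 in controls and -3.85 ± 0.33 in cadmium, and one at chr2:214767669-214767723 had -6.13 ± 0.14 and -4.35 ± 0.58. In both, 1.45 of the difference lay in the immunoprecipitated channel. Both probes dropped out where both channels had to stand above background on all arrays. Usable probes needed only their input above background, here and in the run below. Lower in cadmium were probes at chr13:51120862-51120914 (2.5 ± 0.19 and 1.17 ± 0.24), chr13:45033569-45033613 (2.23 ± 0.070 and 1.05 ± 0.15) and chr18:57656769-57656813 (1.71 ± 0.25 and 0.65 ± 0.20; SD, n = 3). The last lay in the same tile as the chromosome 18 segment above, chr18:57623750-57675193. Their adjusted p was 0.91. Where 3 or more probes in a row each had an unadjusted p under 0.05 in 1 direction they were taken as a run; of 14 runs on the array, 1 lay in a long tile: 4 probes at chr8:54425939-54426622, at -4.40 in controls and -3.42 in cadmium, of which 0.80 lay in the immunoprecipitated channel. Its tile, chr8:54422053-54452053 (30001 bp), had -1.42 ± 0.0037 and -1.28 ± 0.13 (SD, n = 3).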

How the data were processed

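The deposited signal intensity values are background-subtracted with linear dye scaling and, per the file headers, came from version 11.0.1.1 of Agilent Feature Extraction under its ChIP protocol; positions follow build rn4. Per the labels' protocols, Cy5 marks immunoprecipitated and Cy3 input DNA. The authors' deposited table holds log2 values of the same probes; its column medians ran from -0.034 to 0.0273, it correlated at 0.874 to 0.882 with the scanner ratios, and its scale and centring are not given in the sources used here. The submitters' processing notes name limma. The table was used as an alternative only.

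Log2 ratios were centred on each array's median over 172669 non-control probes, without loess. Usable probes had input well above background on all 6 arrays and no outlier flag (132042). Tiles (15846), segments (27745) and probes were compared with limma (version 3.58.1, lmFit then eBayes; R 4.3.3, package data.table of version 1.17.8), two-sided, Benjamini-Hochberg over all features, threshold 0.05, no covariate; class means carry no test. The number of arrays limits the precision. Scan batches are arrays sharing a scan time in the headers. Replicate numbers did not pair samples (same-number correlations -0.185, -0.104 and 0.37), and no arrays shared a probe value. Tested on simulated data for cadmium against control, with 200 of 15846 tiles changed, 10% of 50 tiles changed by 0.5 (log2) were recovered, 78% by 1 and 100% by 2, with 4.79% false calls; of 132042 probes, 24% of 50 changed by 2 and 84% by 4.

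Named tiles were the 5 with the smallest p in each direction, the 5 longest, the 5 highest and 5 lowest in controls with at least 6 usable probes, and the 3 with the widest range of segments; of segments and probes, the 3 with the smallest p in each direction. Other stretches, the chromosome 8 run and the tiles around named probes were named after their values were seen. The members, lists and tests were chosen with earlier results of these data known. Genes, base composition and sequences of the tiles are not analysed here, since the gene table used is of another assembly.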

Additional observations from a re-analysis of the deposited data

How the results depend on the processing

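The members' counts of calls stayed at 0 under most settings, and the class levels moved with the handling of probe length. Long tiles had 1 call with array weights and 1 with the scan batch as a block, both the chromosome 20 tile; segments had 7 and 1. Probes had 1 call under loess, quantile normalization, no filter on dim probes, both channels above background, trend and robust moderation, array weights, the scan batch as a random block, and equal spread with probe length removed. Calls over all tiles, segments and probes were not counted in these fits, so the members' counts cannot be set against the whole array. Array weights and batch blocks did not apply to class means. The fit with the replicate number as a block gave 0 calls for tiles, segments and probes; these numbers do not pair the samples. With each array left out in turn calls stayed at 0, the level of long minus ordinary tiles in controls ran from -0.196 to -0.187, its group difference from -0.000235 to 0.0386 and middle minus ends from -0.235 to -0.232.

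The level of long minus ordinary tiles (-0.193) was -0.131 under loess, -0.181 under quantile normalization, -0.18 with equal spread, -0.122 under normexp, -0.227 without the dim filter and also with both channels above background, -0.0509 with probe length removed, -0.0475 with equal spread as well, -0.148 in the deposited table, -0.3 with a tile gap of 500 bp, -0.0852 and -0.237 with members from 2000 or 3000 bp, 0.017 for joined tiles alone and -0.485 for continuous tiles alone. Middle minus ends (-0.233) was, in the same order, -0.169, -0.221, -0.219, -0.126, -0.274 and -0.148 (both channels), -0.165, -0.154, -0.146, -0.0657, 0.558 and -0.314, -0.283 and -0.163, and -0.217 with outlier spots kept. The value of 0.558 comes from tiles of 2000 bp to under 2500 bp, whose middles lie above their ends.

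The signs of some named tiles turned. The group difference of chr2:15254240-15256960 was -0.0234 with equal spread, and that of chr14:109654846-109661710 was -0.017 with both channels above background and -0.0154 in the deposited table. Requiring both channels above background drops the lowest probes, and control ratios then turned positive: 0.223 (chr6:134339829-134439545), 0.0249 (chr17:22069800-22136345), 0.453 (chr1:135241889-135304142), 0.272 (chr6:134098852-134155478), 0.479 (chr10:28498053-28504021) and 0.206 (chr6:134168153-134210102). Under normexp chr1:135241889-135304142 was at 0.0407, and centred on usable probes chr6:134098852-134155478 was at 0.0427. The split at 5000 bp, the length bins, centring on usable probes, counts without cadmium replicate 2 and equal spread with probe length removed were chosen after seeing the data.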
